A study of Mus musculus with 2 samples.

Results

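The genes described are 30 genes of cholesterol and fatty acid synthesis, measured by RNA sequencing in primary chondrocytes of *Myl3*-KO and control mice. They were chosen by symbol, as enzymes of the mevalonate, sterol and fatty acid pathways, as regulators of the SREBP transcription factors, and as proteins of sterol uptake and traffic. All 30 were among the 22156 genes of the deposited table. The study deleted *Myl3*, which encodes a myosin light chain, to ask how its loss alters chondrocytes. Chondrocytes were taken from newborn mice and grown as a monolayer in serum-containing medium, and each genotype gave 1 library, from a number of animals not given in the sources used here. The *Myl3*-KO library came from *Col2a1*-Cre: *Myl3* fl/fl mice on a C57BL/6J background, in which Cre is driven by the promoter of a cartilage collagen. The control is labelled WT, whereas the study's methods describe control littermates as *Myl3* flox/flox mice without Cre, and the label does not say whether these control cells carried the floxed alleles. The labels name rib cartilage, and the methods name rib and articular cartilage.

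The library totals were 17612434.91 expected counts for the control and 13477976.98 for *Myl3*-KO. An expected count is an estimated number of reads for a gene, and CPM is that count divided by the library total and put on a common scale. *Myl3* itself had 0 counts in both libraries, so its deletion could not be checked here. The cartilage genes *Acan*, *Matn1*, *Matn3* and *Hapln1* were also at 0 in both libraries, *Col2a1* had 30 counts in control cells against 27 in *Myl3*-KO cells, and *Col1a2*, a collagen of fibroblasts and bone, had 211652 and 189213. Most defining markers of the labelled cell type were thus at or near 0 in both libraries. The chondrocyte marker *Sox9* was an exception, with 866 counts in control cells against 480 in *Myl3*-KO cells, and *Col11a1* had 121 and 99. The fibroblast marker *Thy1* had 0 in both. With 1 library per genotype there is no spread between replicates. The counting test used below sets the reads of 1 library against those of another and says nothing of how cultures of a genotype vary, and its intervals cover counting error only. In RNA from whole cultures, fewer cells with a transcript and less of it per cell cannot be told apart.

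Cells make cholesterol from acetyl-CoA through mevalonate, isoprenyl diphosphates, squalene and lanosterol, and they make saturated fatty acids from the same acetyl-CoA with fatty acid synthase. Both pathways are under the control of SREBP proteins. These are held in the endoplasmic reticulum by SCAP and the INSIG proteins when sterols are plentiful, and are carried to the Golgi apparatus, cut and released to the nucleus when sterols are scarce. Cartilage has no blood vessels, and its cells both make and take up sterols. Inherited defects of several late sterol enzymes, among them EBP, NSDHL and DHCR7, cause malformations of the skeleton.

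The 30 genes differed little between the libraries, as did most genes counted to a like depth. No gene reached a log2 ratio of 0.5 in either direction, a 1.41-fold difference, and the farthest from 0 by counts was *Npc1* at 0.35, or 1.27-fold higher in *Myl3*-KO. By FPKM, *Dhcr7* at -0.40 and *Tm7sf2* at 0.38 were farther from 0 than *Npc1*. For 27 of the 30 genes the whole 95% interval of the log2 ratio lay between -0.5 and 0.5, and the exceptions were *Tm7sf2*, *Dhcr7* and *Npc1*. Over the 12431 genes with at least 10 counts in both libraries together, 7.99% were higher by that limit and 3.75% were lower. Among the 8219 genes with at least 500 counts, as 29 of the 30 genes had, these shares were 1.61% and 0.767%. The median log2 ratio, *Myl3*-KO over control, was -0.037 for the 30 genes, 0.017 for all genes tested and -0.004 for the genes with at least 500 counts. The median size of the log2 ratio, with the sign left off, was 0.134 for the 30 genes and 0.140 for the genes with at least 500 counts.

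In the counting test, a two-sided exact binomial test with Benjamini-Hochberg adjustment over all genes tested, 7 of the 30 genes were higher in *Myl3*-KO, against 18.6% of all genes tested, and 12 were lower, against 16.8%. Among the genes with at least 500 counts the shares were 22.4% higher and 23.6% lower, a comparison added after the data were seen. The other 11 genes were not called. At these depths the test calls very small differences, and none of the 19 calls was left when a preset biological coefficient of variation of 0.1 was allowed for in edgeR's exact test. The share of all genes left under that setting is not given here, so the loss cannot be called particular to the 30 genes. Of the 18 enzymes of the mevalonate and sterol arms, 9 were lower and 1 was higher. Of the 5 SREBP regulators 2 were higher and 0 lower, of the 3 genes of sterol uptake and traffic 2 were higher and 1 lower, and of the 4 genes of fatty acid synthesis 2 were higher and 2 lower. The differences between these roles were not tested.

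**Figure D1:**
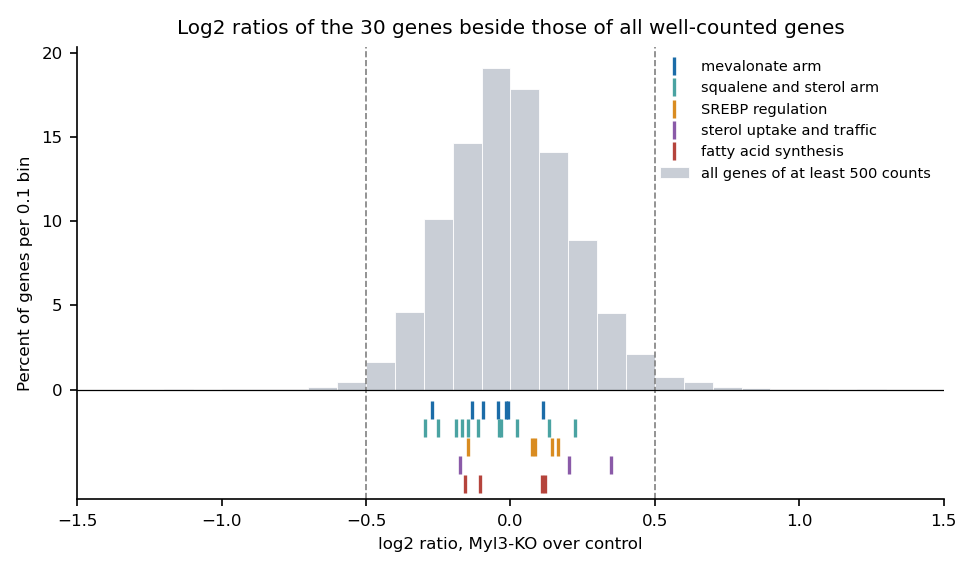
The grey bars show the percent of the 8219 genes with at least 500 counts in each bin of log2 ratio (*Myl3*-KO over control), and the coloured ticks below them show the 30 genes by role. Dashed lines mark log2 ratios of 0.5 and -0.5. All ticks lie between the dashed lines, from -0.30 for *Dhcr7* to 0.35 for *Npc1*.

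Levels were compared between genes as FPKM, which scales reads by transcript length and library size. The most abundant of the 30 genes was *Scd2*, with 449 FPKM in the control and 403 in *Myl3*-KO, followed by *Fdps* with 179 and 166. The least abundant were *Tm7sf2*, with 2.76 FPKM in control cells against 3.60 in *Myl3*-KO cells, and *Npc1*, with 5.54 and 7.06. The median of the 30 genes was 48.6 FPKM in the control and 47.2 in *Myl3*-KO. The order of levels was nearly kept between the libraries, with 14 genes at the same place and no gene moving by more than 4 places. *Scd2* held 36.1% of the counts of the 30 genes in the control and 33.8% in *Myl3*-KO. The 30 genes summed to 6777 CPM in control cells against 6504 in *Myl3*-KO cells, a log2 ratio of -0.059, and without *Scd2*, left out after its values were seen, to 4329 and 4307, a log2 ratio of -0.0073.

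**Figure D2:**
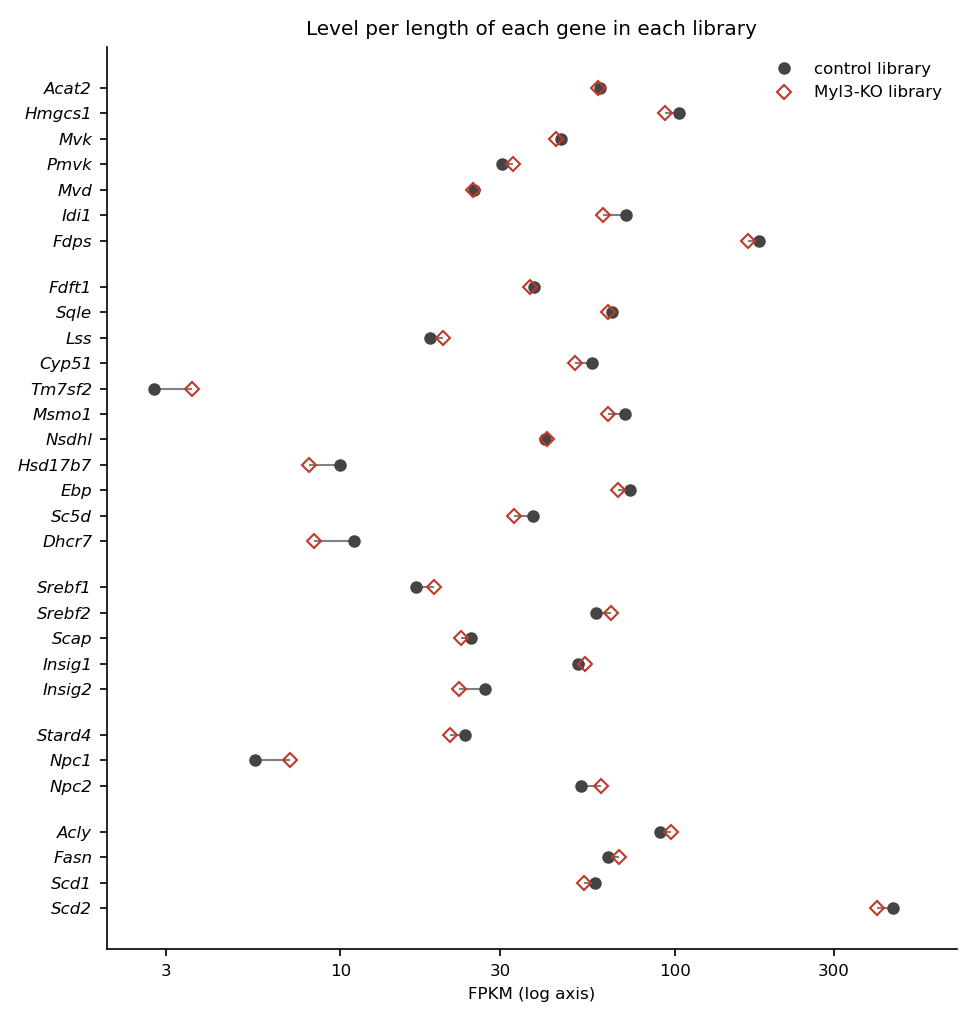
Each row is 1 gene, with its FPKM in the control library (filled circle) and in the *Myl3*-KO library (open diamond) on a log axis, grouped by role from the mevalonate arm at the top to fatty acid synthesis at the bottom. The levels span from 2.76 FPKM for *Tm7sf2* in the control to 449 for *Scd2* in the control, and the pair of symbols of a gene lies close together beside that span.

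Promoter sequence is shown for 2 sterol enzymes that were lower in *Myl3*-KO, *Hmgcs1* and *Sc5d*, and for 2 fatty acid enzymes that were higher, *Acly* and *Fasn*, because SREBP proteins act through such sequences. Each line gives the 150 bases before the RefSeq start site, 5′ to 3′ on the strand of the gene, on GRCm38.p6. Capitals mark matches, on either strand, to the sterol regulatory element TCACNCCAC, the CCAAT box CCAAT and the GC box GGGCGG. The stretch of *Hmgcs1* lies at chr13:119690201-119690350 on the plus strand, that of *Sc5d* at chr9:42264301-42264450, that of *Acly* at chr11:100528001-100528150 and that of *Fasn* at chr11:120824548-120824697, these 3 on the minus strand.
Hmgcs1: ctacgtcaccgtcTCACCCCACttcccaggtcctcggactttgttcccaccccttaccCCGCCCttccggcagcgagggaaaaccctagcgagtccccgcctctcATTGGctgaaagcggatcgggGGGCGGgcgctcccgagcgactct
Sc5d: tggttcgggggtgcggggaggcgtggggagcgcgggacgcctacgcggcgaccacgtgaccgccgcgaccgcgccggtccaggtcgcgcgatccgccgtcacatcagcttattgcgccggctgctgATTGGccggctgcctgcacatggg
Acly: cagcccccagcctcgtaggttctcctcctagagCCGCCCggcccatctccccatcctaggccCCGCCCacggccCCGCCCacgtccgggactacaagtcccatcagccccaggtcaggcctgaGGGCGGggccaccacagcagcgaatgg
Fasn: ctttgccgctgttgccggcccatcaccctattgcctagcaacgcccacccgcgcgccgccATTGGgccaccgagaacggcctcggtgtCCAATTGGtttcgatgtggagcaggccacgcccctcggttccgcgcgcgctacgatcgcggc

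The *Hmgcs1* stretch holds the sterol regulatory element with its first letter 137 bases before the start, 1 CCAAT box on the minus strand and 2 GC boxes. The *Sc5d* stretch holds 1 CCAAT box, the *Acly* stretch 4 GC boxes, and the *Fasn* stretch 3 CCAAT boxes, of which 1 on each strand overlap as CCAATTGG. The RefSeq table held 31 start windows, each from 250 bases before to 50 bases after a start, for 23 of the 30 genes, all but *Fdps*, *Fdft1*, *Sqle*, *Stard4*, *Npc1*, *Scd1* and *Scd2*. These windows are longer than the printed stretches and hold further matches. The window of *Hmgcs1* held 4 CCAAT boxes and 3 GC boxes, that of *Sc5d* 1 and 4, that of *Acly* 1 and 4, and that of *Fasn* 3 and 0. TCACNCCAC was found in 1 of these 31 windows, that of *Hmgcs1*, and in 1.24% of all 32851 windows of the table. CCAAT was found in 71.0% of the 31 windows against 37.4% of all, GGGCGG in 80.6% against 35.7%, and the E-box CANNTG in 83.9% against 72.3%. Among the 12123 windows of genes tested, GGGCGG was in 63.0%, CCAAT in 38.0% and CANNTG in 63.3%. These are matches of letters in a window and were not tested for binding or for a relation to the log2 ratios.

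In the mevalonate arm, which leads from acetyl-CoA to farnesyl diphosphate, 3 of 7 genes were lower in *Myl3*-KO and 0 were higher, and the median log2 ratio was -0.045. *Idi1*, which interconverts the isoprene units of the pathway, had 3389 counts in control cells against 2147 in *Myl3*-KO cells, or 192 and 159 CPM. Its log2 ratio of -0.27 (95% Clopper-Pearson interval -0.35 to -0.19, adjusted p = 1.18e-10 in the exact binomial test) was the farthest from 0 in the arm. *Hmgcs1*, which makes HMG-CoA at the entry of the pathway, had 5903 counts in control cells against 4116 in *Myl3*-KO cells, which gives a log2 ratio of -0.13 (interval -0.19 to -0.077). *Fdps*, the synthase of farnesyl diphosphate, had 3862 and 2764 counts, a log2 ratio of -0.096 (interval -0.17 to -0.026, adjusted p = 0.0236 in the exact binomial test). These 3 differences were small, the largest being a 1.21-fold higher level in control cells and the smallest a 1.07-fold higher one.

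The other 4 genes of the arm were not called. *Acat2*, a cytosolic thiolase, had 130 CPM in each library, and its log2 ratio of -0.0083 lay in an interval of -0.099 to 0.082. *Mvk* and *Pmvk*, the kinases that phosphorylate mevalonate in turn, had log2 ratios of -0.045 (1209 and 897 counts) and 0.11 (639 and 529 counts). *Mvd*, which forms isopentenyl diphosphate, had 778 counts in control cells against 589 in *Myl3*-KO cells, which gives a log2 ratio of -0.016 (interval -0.17 to 0.14). The arm as a whole took 1026 CPM in control cells against 949 in *Myl3*-KO cells.

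How the authors' counting divided reads between like sequences can move some of these values. Of the 31-base words in the transcripts of *Acat2*, 43.7% were shared with its paralogue *Acat3*, which had 19.89 counts in control cells against 15.19 in *Myl3*-KO cells. *Idi1* shared 18.8% of its words with other genes, most with the processed pseudogene *Gm13502*, and *Fdps* shared 27.9%, most with the overlapping *Gm43738*, which had 0 counts in control cells against 2.93 in *Myl3*-KO cells, and with the pseudogene *Gm3571*. *Mvd*, at chr8:122433601-122443422, lies wholly within *Gm20388* on the opposite strand, which had 807.71 counts in control cells against 560.82 in *Myl3*-KO cells, and without strand in the counting the reads of these genes cannot be told apart. The strand setting was not given in the sources used here, and the values of these 4 genes are uncertain.

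In the squalene and sterol arm, which leads from farnesyl diphosphate to cholesterol, 6 of 11 genes were lower in *Myl3*-KO, 1 was higher and 4 were not called, with a median log2 ratio of -0.114. The lower genes were *Cyp51*, *Msmo1*, *Hsd17b7*, *Ebp*, *Sc5d* and *Dhcr7*, which act after the closure of the sterol rings. *Nsdhl* and *Tm7sf2* act after it too and were not called, with log2 ratios of 0.023 and 0.22. *Dhcr7*, which reduces 7-dehydrocholesterol to cholesterol, had 433 counts in control cells against 270 in *Myl3*-KO cells, or 24.6 and 20.03 CPM. With a log2 ratio of -0.30 (interval -0.52 to -0.073, adjusted p = 0.0274 in the exact binomial test) it was the lowest of the 30 genes in *Myl3*-KO, and its interval was the only one among the called lower genes to pass -0.5. *Hsd17b7*, the 3-ketosteroid reductase of C4 demethylation, followed with 780 counts in control cells against 501 in *Myl3*-KO cells, which gives a log2 ratio of -0.25 (interval -0.42 to -0.089).

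*Msmo1*, the oxidase that begins C4 demethylation, had 2524 counts in control cells against 1696 in *Myl3*-KO cells, which gives a log2 ratio of -0.19 (interval -0.28 to -0.098). *Cyp51*, which removes the C14 methyl group of lanosterol, had 3913 and 2664 counts, a log2 ratio of -0.17 (interval -0.24 to -0.097). The sterol desaturase *Sc5d*, with 1431 and 990 counts, had a log2 ratio of -0.15, and the sterol isomerase *Ebp*, with 2255 and 1595 counts, one of -0.11. The last pair stood close to the threshold, with adjusted p = 0.0427 for *Sc5d* and 0.0462 for *Ebp* in the exact binomial test, and neither was called when all genes of the table were tested without a filter on low counts.

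*Lss*, which folds oxidosqualene into lanosterol, was the only enzyme of the 2 arms called higher in *Myl3*-KO. It had 1521 counts in control cells against 1277 in *Myl3*-KO cells, or 86.4 and 94.7 CPM, a log2 ratio of 0.13 (interval 0.025 to 0.24, adjusted p = 0.0445 in the exact binomial test). This call was lost with the scaling factors of edgeR's TMM, with DESeq2's size factors and without the filter. The synthase *Fdft1* and the epoxidase *Sqle*, which make and oxidise squalene, had log2 ratios of -0.033 (2077 and 1553 counts) and -0.041 (3147 and 2341 counts), and the sterol dehydrogenase *Nsdhl* one of 0.023 (1563 and 1215 counts). *Tm7sf2*, a C14 sterol reductase, had only 51.48 counts in control cells against 45.95 in *Myl3*-KO cells, and its interval of -0.37 to 0.84 was too wide to show a difference of the size seen in the other genes. It overlaps *Vps51* on the same strand, with which it shared 10.7% of its words, and *Fdft1* shared 14.3% of its words with the processed pseudogene *Gm6781*. *Fdft1* and *Cyp51* each overlap a neighbour on the opposite strand, *Ctsb* by 774 bases and *Akap9* by 166. Further genes annotated on the opposite strand, whose counts were not analysed here, overlap *Lss* (*4930483K19Rik*, by 11268 bases), *Hmgcs1* (*Gm48342*, by 6190), *Scap* (*5830462I19Rik*, by 3383) and *Insig2* (*Gm37174*, by 3058).

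Taken as one sum, the 18 enzymes of both arms had 2144 CPM in control cells against 1998 in *Myl3*-KO cells, a log2 ratio of -0.102. Of all genes tested, 16.8% were called lower in *Myl3*-KO, and of those with at least 500 counts 23.6%. Proliferation genes were lower in the same library, with 10 of 12 called lower and 0 higher, a median log2 ratio of -0.285 and sums of 3217 CPM in control cells against 2659 in *Myl3*-KO cells. They ranged from *Cdk1* and *Ccnb1* at -0.52 and -0.48 to *Mcm2* and *Mki67* at -0.070 and -0.023, the last pair without a call. Low-oxygen and glycolysis genes were lower as well, 11 of 12 called, with a median of -0.537 and sums of 4363 and 2997 CPM, from *Ankrd37* and *Egln3* at -1.73 and -1.07 to *Pfkl* and *Vegfa* at -0.31 and -0.30. Both shifts were larger than that of the sterol enzymes, and their part in the sterol result was not tested.

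**Figure D3:**
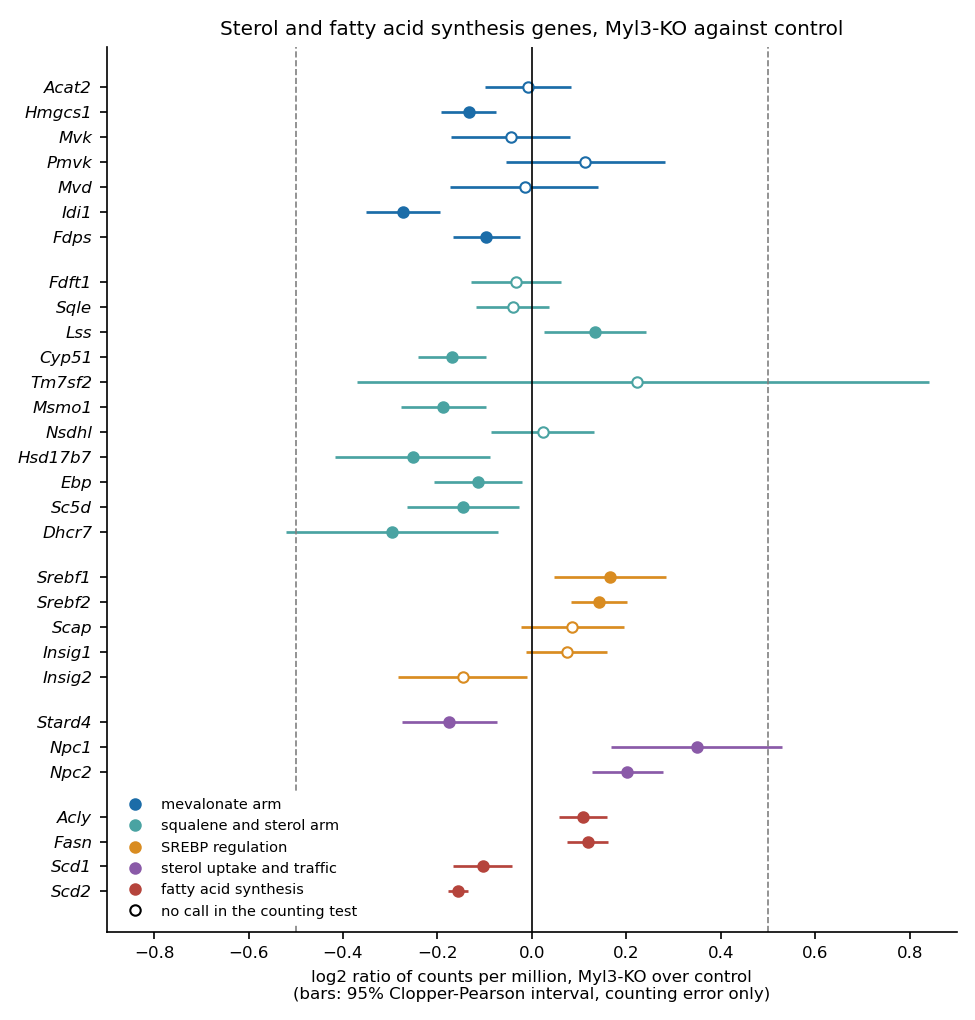
Each row is 1 gene, with its log2 ratio of CPM (*Myl3*-KO over control) and the 95% Clopper-Pearson interval, which covers counting error only, coloured by role. Filled circles were called in the counting test, and dashed lines mark log2 ratios of 0.5 and -0.5. Most filled circles of the sterol arm lie left of 0, the lowest being *Dhcr7* at -0.30, and those of the SREBP regulators lie right of 0.

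Among the SREBP regulators, both transcription factor genes were slightly higher in *Myl3*-KO. *Srebf2*, which encodes the main activator of the sterol genes, had 5123 counts in control cells against 4326 in *Myl3*-KO cells, or 291 and 321 CPM, a log2 ratio of 0.14 (interval 0.083 to 0.20, adjusted p = 1.69e-05 in the exact binomial test). It overlaps *Gm49502*, whose counts were not analysed here, by 2110 bases on the same strand, and shared 1.32% of its words with other genes. *Srebf1*, which encodes the main activator of the fatty acid genes, had 1252 and 1074 counts, or 71.1 and 79.7 CPM, a log2 ratio of 0.16 (interval 0.046 to 0.28). *Srebf2* kept its lead over *Srebf1* per length, with 58.3 FPKM against 16.8 in the control and 64.3 against 19.0 in *Myl3*-KO. Of the counts of both genes, *Srebf2* took 80.4% in the control (95% Clopper-Pearson interval 79.4% to 81.3%) and 80.1% in *Myl3*-KO (79.0% to 81.2%). The log2 ratio of *Srebf2* minus that of *Srebf1* was -0.023, and this difference was not tested.

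*Scap*, the escort of SREBP proteins, was not called, with 1537 counts in control cells against 1248 in *Myl3*-KO cells. Its sign depended on the unit, since the log2 ratio was 0.085 by counts and -0.098 by FPKM. The anchor proteins *Insig1* and *Insig2* had log2 ratios on opposite sides of 0, neither of them called. *Insig1* had 2443 counts in control cells against 1967 in *Myl3*-KO cells, which gives a log2 ratio of 0.073 (interval -0.013 to 0.16), and *Insig2* had 1076 and 744 counts, a log2 ratio of -0.15 (interval -0.28 to -0.010, adjusted p = 0.0844 in the exact binomial test), which was called lower with TMM factors and whose log2 ratio by FPKM was -0.25. Of the counts of both, *Insig1* took 69.4% in the control (interval 67.9% to 70.9%) and 72.6% in *Myl3*-KO (70.8% to 74.2%). These intervals overlapped at their ends, which is not a test of the shares against each other. The log2 ratio of *Insig1* lay 0.22 above that of *Insig2*, and this difference was not tested. The 5 regulators summed to 649 CPM in control cells against 694 in *Myl3*-KO cells, a log2 ratio of 0.097.

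The genes of sterol traffic were called on both sides. *Npc1* and *Npc2*, which together pass cholesterol out of lysosomes, were higher in *Myl3*-KO. *Npc1*, the membrane protein, had 510 counts in control cells against 497 in *Myl3*-KO cells, or 29.0 and 36.9 CPM, a log2 ratio of 0.35 (interval 0.17 to 0.53, adjusted p = 7.72e-04 in the exact binomial test). It overlaps *Gm15956* by 4908 bases and *Rmc1* by 967 bases, both on the opposite strand, and *Rmc1* had 391 counts in control cells against 278 in *Myl3*-KO cells. *Npc2*, the soluble protein, had 3040 and 2676 counts, or 173 and 199 CPM, a log2 ratio of 0.20 (interval 0.13 to 0.28). *Stard4*, a carrier of cholesterol in the cytosol, was lower, with 1994 and 1352 counts and a log2 ratio of -0.17 (interval -0.28 to -0.074).

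Of the 4 fatty acid synthesis genes, 2 were higher in *Myl3*-KO and 2 were lower. *Acly*, which makes cytosolic acetyl-CoA from citrate, had 7026 counts in control cells against 5796 in *Myl3*-KO cells, or 399 and 430 CPM, a log2 ratio of 0.11 (interval 0.058 to 0.16). *Fasn*, the synthase of palmitate, had 9567 and 7944 counts, or 543 and 589 CPM, a log2 ratio of 0.12 (interval 0.075 to 0.16, adjusted p = 8.84e-07 in the exact binomial test). Both were called higher, although by only 1.08-fold and 1.09-fold. The stearoyl-CoA desaturases *Scd1* and *Scd2*, which put the double bond into oleate and palmitoleate, were lower.

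*Scd2* had 43120 counts in control cells against 29603 in *Myl3*-KO cells, or 2448 and 2196 CPM, a log2 ratio of -0.16 (interval -0.18 to -0.14, adjusted p = 6.32e-45 in the exact binomial test). This was the most precise of the 30 ratios, and its size, a 1.11-fold higher level in control cells, was close to the middle of the 30. *Scd1* had 4906 and 3493 counts, or 279 and 259 CPM, a log2 ratio of -0.10 (interval -0.17 to -0.041). The 2 genes are neighbours on chromosome 19, *Scd2* at chr19:44293674-44306864 on the plus strand and *Scd1* at chr19:44394455-44407879 on the minus strand, and *Scd1* shared 5.18% of its words with *Scd2*. *Scd2* led *Scd1* by 7.79-fold in FPKM in the control and 7.52-fold in *Myl3*-KO. Of the other desaturase genes of this cluster, *Scd3* had 7 counts in control cells against 4.01 in *Myl3*-KO cells, and *Scd4* had 6 and 3. Markers of adipocytes, in which *Scd1* and *Fasn* are abundant, were near 0 in both libraries. *Plin1*, *Cfd*, *Lep* and *Cidec* had 0 counts in each, *Adipoq* had 3 in control cells and 0 in *Myl3*-KO cells and *Fabp4* 3 in each. *Lipe*, which other cells express too, had 36 and 48 and was the 1 marker of the list with enough counts to be tested. It was called higher in *Myl3*-KO, with a log2 ratio of 0.80 (interval 0.15 to 1.47, adjusted p = 0.0345 in the exact binomial test). The 8 markers summed to 2.67 CPM in control cells against 3.93 in *Myl3*-KO cells.

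Other genes of the same pathways, taken from lists of lipid genes, were also called on both sides. For these lists and those that follow, the shares called over all genes tested were 18.6% higher and 16.8% lower. Among the genes with at least 500 counts they were 22.4% and 23.6%. No list was tested against these shares. Of 14 other sterol synthesis and SREBP processing genes, 13 were tested, 3 were higher and 4 lower, with a median log2 ratio of -0.008. The lowest were *Tmem97*, a sterol-responsive membrane protein, with 2120 counts in control cells against 1156 in *Myl3*-KO cells (-0.49), and *Erlin1*, with 2279 and 1400 (-0.32). At the other end, *Syvn1*, a ubiquitin ligase of the endoplasmic reticulum, had 987 and 887 (0.23).

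Of 22 other genes of fatty acid synthesis and desaturation, 20 were tested, 3 were higher and 5 lower, with a median of -0.066. *Acacb*, an acetyl-CoA carboxylase, had 203 counts in control cells against 215 in *Myl3*-KO cells (0.47), and the desaturase *Fads1* had 2434 and 2375 (0.35). The acyl-CoA synthetases *Acsl1* and *Acsl3* were at the other end, with log2 ratios of -0.29 (693 and 435 counts) and -0.28 (2738 and 1721 counts). In the non-sterol isoprenoid branch, 2 of 11 genes were lower and 0 higher, with a median of -0.098. *Pdss1*, which makes the side chain of ubiquinone, had 430.98 counts in control cells against 199 in *Myl3*-KO cells (-0.73) and was the only gene of that branch past the 0.5 limit. *Fntb*, a farnesyltransferase subunit, had a log2 ratio of -0.23 (237 and 155 counts), and *Pdss2* and *Dhdds* had 0.17 (227 and 196) and 0.11 (898 and 740), these 3 without a call.

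Among 11 genes of LXR signaling, sterol efflux and esterification, 8 were tested, of which 1, *Lpcat3*, was lower at -0.15 (1309 and 901 counts) and 0 were higher, with a median of -0.041. *Nceh1*, a cholesteryl ester hydrolase, had 227 counts in control cells against 136 in *Myl3*-KO cells (-0.35, no call), and *Nr1h2*, which encodes an LXR, and *Lcat* had 0.076 (997 and 804 counts) and 0.064 (65 and 52 counts). Of 15 genes of lipid uptake and storage, 14 were tested, 5 were higher and 1 lower, with a median of 0.103. *Lrp1*, a lipoprotein receptor, had 4484 counts in control cells against 5170 in *Myl3*-KO cells (0.59), beyond the 0.5 limit, and the fatty acid transporter *Slc27a1* had 178 and 189 (0.47). *Fabp5*, a fatty acid carrier, was the gene called lower, with 4870 and 2887 (-0.37), and *Slc27a4* had -0.096 without a call. *Abca1* and *Lpl*, named after their values were seen, also lay beyond -0.5, but on 23 and 10 counts for *Abca1* and 17 and 6 for *Lpl*, without a call. Of 15 fatty acid oxidation genes, 14 were tested, 5 were higher and 2 lower, with a median of 0.084, from *Etfa* at -0.14 and *Hadh* at -0.13 (no call) to *Cpt1a*, the carnitine palmitoyltransferase of fatty acid entry, at 0.35 (481 and 470 counts) and *Acadm* at 0.42 (2090 and 2133 counts).

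**Figure D4:**
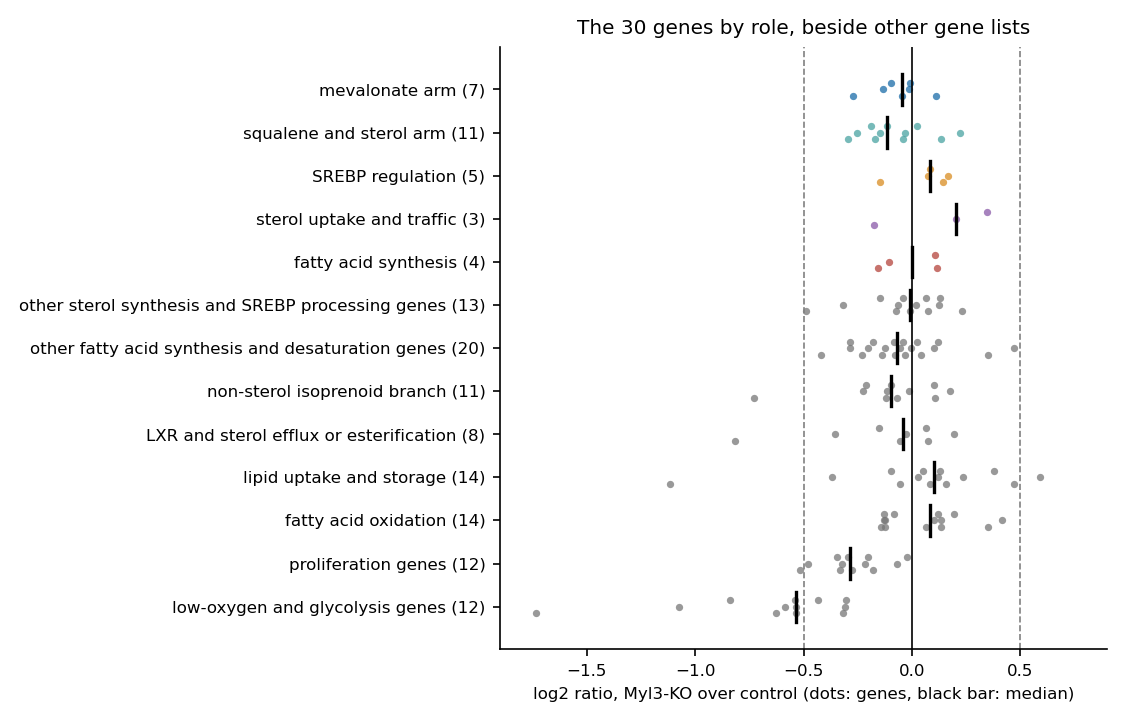
Each dot is 1 tested gene at its log2 ratio (*Myl3*-KO over control), with 1 row per list, the number of genes tested in parentheses and the median as a black bar. Coloured rows are the 30 genes by role and grey rows the other lists. The medians of the lipid lists lie between -0.114 and 0.202, whereas those of the proliferation and low-oxygen lists lie at -0.285 and -0.537.

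Within the lists of cell type markers, 7 of 8 fibroblast markers were tested, and 3 of these were higher and 3 lower. They ranged from *Dcn* at -1.64 (631 and 155 counts) and *Lum* at -1.36 (272 and 81) to *Col1a2* at 0.22 and *Pdgfra* at 0.61 (120 and 140). The list summed to 15461 CPM in control cells against 17531 in *Myl3*-KO cells. Of the 11 chondrocyte markers, 10 were in the table and 3 were tested, with sums of 57.8 and 45.3 CPM, of which *Sox9*, a transcription factor of chondrocytes, gave most. With 866 and 480 counts and a log2 ratio of -0.47, *Sox9* was called lower, beyond the range of the 30 genes. *Col2a1* and *Col11a1* were not called, with log2 ratios of 0.23 and 0.096. Macrophage markers summed to 5.06 and 4.67 CPM, with 4 of 6 tested and none of these called by the exact binomial test, and the 6 muscle markers, none of which had enough counts to be tested, summed to 0.341 and 0.223 CPM. Their part in the results on the 30 genes was not tested.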

How the data were processed

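RNA was taken from primary chondrocytes of control and *Myl3*-KO mice, with 1 library each. The authors deposited expected counts per gene, not normalized, and FPKM values beside them, rounded to 2 decimals. The submitters' processing notes name GRCm38 (mm10), and the aligner, the counter and the strand setting are not given in the sources used here. The table's column abbreviated NC was read as the control because the other is named KO.

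Log2 ratios (*Myl3*-KO over control) were computed from counts divided by the library total, 17612434.91 and 13477976.98, with counts under 3 raised to 3. Counts were rounded for an exact binomial test, two-sided, of the *Myl3*-KO share against that of the library totals, with Benjamini-Hochberg adjustment over the 12431 genes whose counts in both libraries reached 10 together, called at an adjusted p under 0.05, and for 95% Clopper-Pearson intervals (scipy 1.17.1). The test was checked on simulated data drawn with counting error only, as the test itself assumes. That check does not cover variation between cultures. A log2 ratio of 0.5 served as the limit of size. No residual degrees of freedom were left for the quasi-likelihood test of edgeR or for the test of DESeq2, and the counting test compares 2 sets of reads, not genotypes. Scaling by edgeR 4.0.16 (TMM) and DESeq2 1.42.0, other filters, FPKM ratios and edgeR's exact test with preset variation were alternatives.

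The 30 genes were all named, and of the other pathway lists the 2 genes with the most positive and the 2 with the most negative log2 ratio among those with at least 50 counts. The result of 1 gene that this rule names is not reported here. Genes whose overlap or shared sequence could move a value of the 30 genes most were added. The members and lists were chosen with earlier results of these data known. Lists covered other sterol, fatty acid, isoprenoid, LXR, lipid uptake and oxidation genes, markers of chondrocytes, fibroblasts, adipocytes, macrophages and muscle, and proliferation and low-oxygen genes. *Spring1* and *Snorc* were not found under these symbols and were not analysed here. Coordinates and transcripts came from GENCODE M21 (GRCm38), and promoter windows from RefSeq on GRCm38.p6, for 23 of the 30 genes.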

Additional observations from a re-analysis of the deposited data

How the results depend on the processing

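With 1 library per genotype, no replicate could be left out. No paired analysis was possible because each genotype has 1 library. The counts of 7 higher and 12 lower genes became 6 and 13 with TMM factors, 6 and 12 with DESeq2 size factors, and 6 and 10 without a filter on low counts. They did not change with a filter of 10 counts in each library or with 1 count added to each library. At an unadjusted p under 0.05, an alternative chosen after seeing the data, they were 7 and 13. With edgeR's exact test and a preset coefficient of variation of 0.1, 0.2 or 0.4 they were 0 higher and 0 lower, because that test allows for spread between replicates, which these libraries cannot show. Shares of all genes called under these alternative settings are not given here, so the counts cannot be set against them. At a log2 ratio limit of 0.3 in place of 0.5, 1 gene was higher, *Npc1*, and 0 were lower, and at a limit of 1 there were 0 in each direction. Of all genes with at least 500 counts, 4.56% had log2 ratios between 0.3 and 0.4 and 4.59% between -0.4 and -0.3, with more beyond.

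The median log2 ratio of -0.037 was -0.055 with TMM factors, -0.054 with DESeq2 size factors and -0.048 by FPKM, and the median of all genes tested moved from 0.017 to -0.0012, 0.000032 and 0.013. Over members with under 5% of their words shared with another gene, a restriction added after seeing the data, it was -0.016. The only change of sign for a single gene was that of *Scap* by FPKM. FPKM and count log2 ratios differed by over 0.1 for 4 of the 30 genes, *Tm7sf2*, *Dhcr7*, *Scap* and *Insig2*, of which 3 had at least 500 counts, against 7.39% of all genes of that depth. By FPKM they were at 0.38, -0.40, -0.098 and -0.25. The cause was not tested.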
